A study of Mus musculus with 8 samples.

Results

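The mRNA concentrations of 10 genes for secreted Wnt ligands and modulators were followed in NIH3T3, a Hedgehog-responsive line of mouse embryo fibroblasts. They were chosen from the 20190 genes that had a value in all 8 samples. Sfrp1, Sfrp2, Frzb, Dkk2, Dkk3 and Wif1 encode secreted proteins of families with members that bind Wnt proteins or their receptors. For Dkk3, a divergent Dickkopf, such binding is not assumed. Wnt4, Wnt5a and Wnt5b are ligands, and Axin2, which is not secreted, is a common readout of β-catenin signalling. The choice was made with the FPKM of the 4 conditions known, so the values of these 10 genes are given as a description, without p-values. Each gene was read from the assembled locus that overlapped the annotated gene best, with a Jaccard index (the shared length divided by the length covered by either) of at least 0.5. The lowest index among the 10 genes was 0.883, for Wnt5a, and none of them fell outside the limit.

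All cells had been stably transfected with pcDNA3.1(Zeo+) and selected for 3 weeks with Zeocin at 150 ug/ml. NIH3T3-pc3.1 cells carried the empty vector and NIH3T3-Esrrb cells a vector for Esrrb, the estrogen-related receptor β, an orphan nuclear receptor. Cells established from 2 independent transfections had been pooled. The methods leave unclear whether this was done across the transfections, so the data may describe 1 pooled line of each kind. At passages 5 to 6 and at confluence, they were treated in DMEM without phenol red, with 5% newborn calf serum, and the treatment lasted 48 h. It was either a 1 in 100 dilution of Hh-CM, which is medium of HEK293 human kidney cells that make the N-terminal part of Sonic Hedgehog, or the same dilution of medium of HEK293 cells without that transgene (vehicle). There were 4 conditions with 2 samples each: Control (empty vector, vehicle), Hh-CM (empty vector, Hh-CM), Esrrb (Esrrb vector, vehicle) and Esrrb+Hh-CM (Esrrb vector, Hh-CM). The methods call the 2 samples of a condition biological replicates and do not say whether they came from separate transfections. Errors and p-values therefore measure the spread between these replicates, which may come from 1 pooled line of each kind.

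Wnt proteins are secreted lipid-modified ligands. They bind Frizzled receptors with the co-receptors Lrp5 and Lrp6 to stabilise β-catenin, or act through Ror2, Ryk and the planar polarity proteins without it. Secreted Frizzled-related proteins carry a Frizzled-like domain that binds Wnts outside the cell, and Wif1 binds Wnts directly. Dickkopf proteins such as Dkk2 bind the Lrp co-receptors. Fibroblasts are known both as a source of Wnt5a and as a source of such inhibitors.

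The Esrrb transcript did not follow the labels at its own locus. At the mouse Esrrb locus (mm9 chr12:87702067-87862578), FPKM (fragments mapped to a transcript, divided by its length and by the library's mapped fragments) was listed at 0 in both Control libraries, in both libraries labelled Esrrb and in both libraries labelled Esrrb+Hh-CM, and at 0.0281 and 0.0203 in the Hh-CM libraries. An exact 0 in these tables can be a failed estimate, and the protein is not among the data used here, so the groups are called by their labels below. The Hedgehog treatment was seen in Gli1, a direct target, at 0.0217 and 0.0308 FPKM in Control, 26.8 and 28.1 in Hh-CM, 0.106 and 0.0371 in the libraries labelled Esrrb, and 34.5 and 34.8 in those labelled Esrrb+Hh-CM. Ptch1, the Hedgehog receptor and also a target, ranged from 2.44 to 3.08 FPKM in the 4 vehicle libraries and from 36.9 to 47.7 in the 4 Hh-CM libraries. All 7 fibroblast markers (Col1a1, Col1a2, Col3a1, Fn1, Vim, Thy1, Pdgfrb) were at 28.2 FPKM or more in all 8 libraries. Epithelial and endothelial markers (Cdh1, Epcam, Krt8, Krt18; Pecam1, Cdh5, Kdr) reached at most 0.12 FPKM, and of the leukocyte markers Ptprc, Cd68 and Itgam only Cd68 passed 1 FPKM, with a highest value of 2.45. Read counts are not in the files used here, and the relative depth of the libraries, estimated from the spacing of their smallest FPKM values with Control replicate 1 set to 1, lay between 0.732 and 1.53. A pair of libraries stood apart in their gene models: the library labelled Esrrb replicate 1 and Hh-CM replicate 2 shared 14074 newly assembled loci, against 6663 to 7046 for every other pair of libraries. The main differences between conditions that rest on either of them are also given without it.

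RefSeq promoters (GRCm38.p6, from 250 bases before to 50 bases after the transcription start) were found for 7 of the 10 genes. The promoters of Sfrp2 and Dkk2 are shown because Sfrp2 had the widest range of levels among the 10 genes and Dkk2 differed in the other direction after Hh-CM. Sfrp2 lies on the plus strand of chr3 (promoter at GRCm38.p6 chr3:83766071-83766370; gene at mm9 chr3:83570243-83578238), and so does Dkk2 (promoter at GRCm38.p6 chr3:132085042-132085341; gene at mm9 chr3:131748256-131843257). Single capitals mark the first transcribed base, and the run of 6 capitals marks a TATAAA match.
Sfrp2: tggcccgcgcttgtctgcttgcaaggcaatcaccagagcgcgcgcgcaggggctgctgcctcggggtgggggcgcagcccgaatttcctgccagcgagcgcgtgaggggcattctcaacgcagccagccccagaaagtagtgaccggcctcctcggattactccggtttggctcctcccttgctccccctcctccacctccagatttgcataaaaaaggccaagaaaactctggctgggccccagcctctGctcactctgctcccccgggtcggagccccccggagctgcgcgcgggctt
Dkk2: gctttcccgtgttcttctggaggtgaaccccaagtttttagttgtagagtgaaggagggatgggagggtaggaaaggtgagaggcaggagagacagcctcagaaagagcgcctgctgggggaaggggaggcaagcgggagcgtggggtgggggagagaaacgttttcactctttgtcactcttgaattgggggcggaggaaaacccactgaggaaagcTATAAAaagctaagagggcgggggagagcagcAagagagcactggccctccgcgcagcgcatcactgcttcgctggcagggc
Both strands were searched for 4 motifs. Neither promoter held TNAAGGTCA, the element of estrogen-related receptors, which 1.28% of the 32851 promoters in the table hold, nor GACCACCCA, the Gli element (0.253%), nor CTTTGAT, an element of the TCF/LEF factors (3.73%). TATAAA, searched for after the sequences were seen, was in the Dkk2 promoter and in 13.6% of all promoters. A match or its lack describes only these letters in this window. GC content was 66.0% in the Sfrp2 and 57.7% in the Dkk2 promoter, against a median of 52.7% over all promoters.

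The 10 genes fell into 2 classes of abundance. Sfrp1, Sfrp2, Dkk2, Dkk3 and Wnt5a had at least 1 FPKM in 2 or more libraries and entered the fit with 10276 genes in all, whereas Frzb, Wif1, Wnt4, Wnt5b and Axin2 did not. The closest on either side of this limit were Dkk2, whose second highest value was 2.69 FPKM, and Wnt4, whose second highest was 0.15. The other genes of the pathway were read from a list of 112 genes, of which 107 were matched in all libraries and 57 were tested. This list was also chosen with earlier results of these data known. The p-values of its genes therefore set a difference against its spread and are no independent test.

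**Figure D1:**
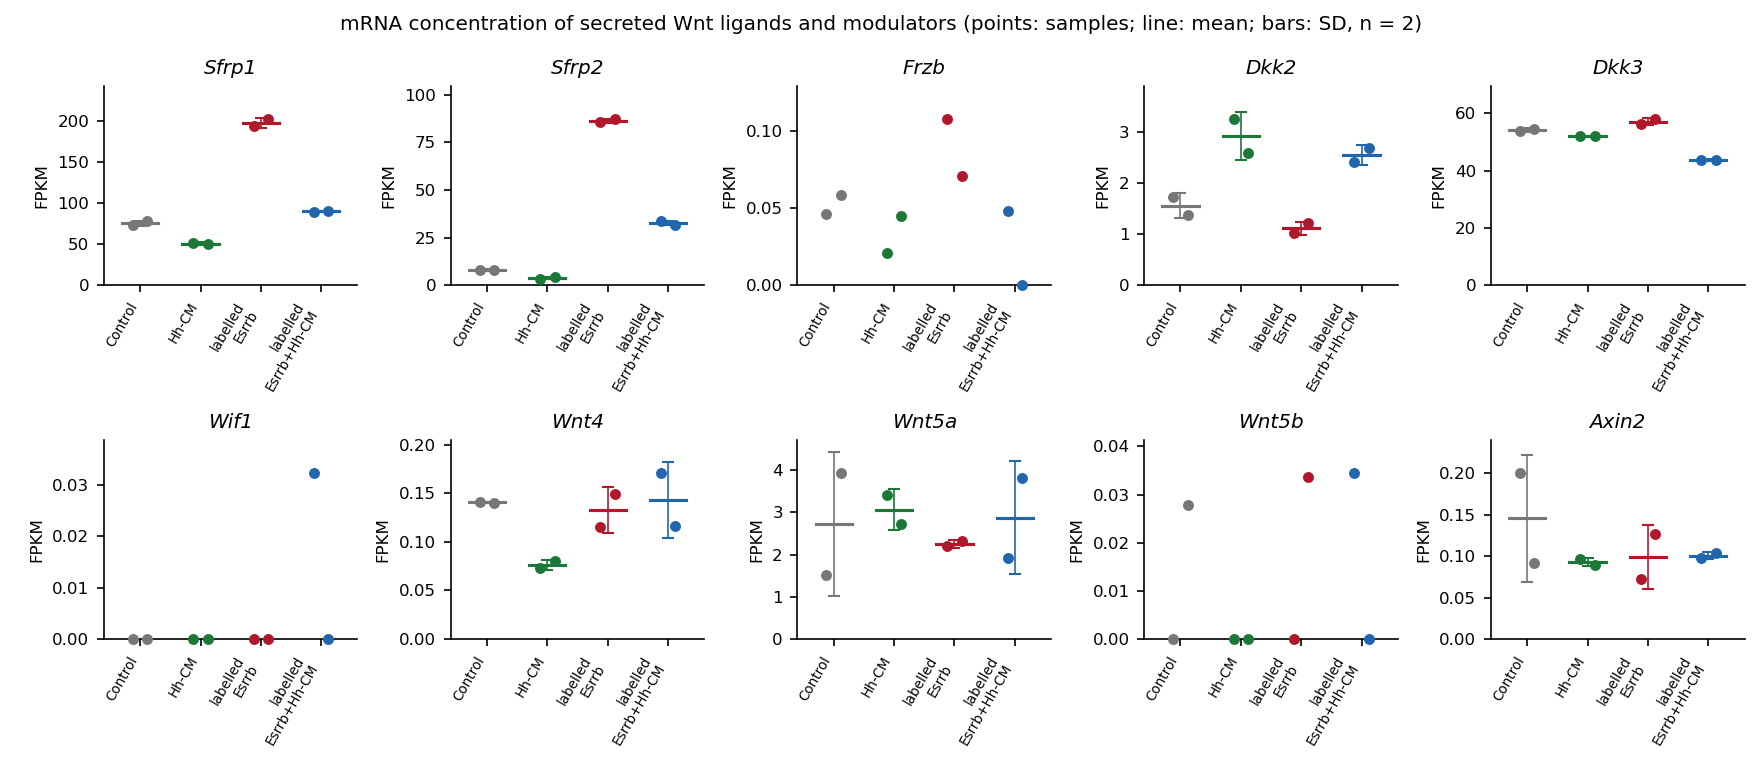
FPKM of the 10 genes (vertical axes, from 0, a scale for each gene) in the 4 conditions (horizontal axes). Points are samples, lines are means and bars are SD of 2 samples; for genes with a library listed at 0 only the points are drawn. Sfrp1 reached 202 and Sfrp2 87.2 FPKM in the libraries labelled Esrrb, whereas Wif1 and Wnt5b reached at most 0.0344 FPKM.

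Sfrp1 was the most abundant of the 10 genes in 3 of the 4 conditions. It encodes secreted frizzled-related protein 1 and lies at mm9 chr8:24521974-24560104 on the plus strand. Its mRNA concentration was 73.0 and 77.4 FPKM in Control, 51.6 and 49.6 in Hh-CM, 193 and 202 in the libraries labelled Esrrb, and 89.2 and 90.1 in those labelled Esrrb+Hh-CM. The 4 conditions did not overlap, and every library of the Esrrb vector stood above every library of the empty vector. Around the 77.4 FPKM of Control replicate 2, Cufflinks gave an interval from 72.0 to 118. Group means were 75.2 ± 3.1 FPKM (SD, n = 2) in Control and 198 ± 6.1 in the libraries labelled Esrrb, a ratio of 2.63. On the log2(FPKM + 0.1) scale, Sfrp1 was 1.39 (SE 0.045) higher in the libraries labelled Esrrb than in Control, and 0.82 (SE 0.045) higher in those labelled Esrrb+Hh-CM than in Hh-CM.

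With Hh-CM, Sfrp1 was lower in both lines. It was 0.57 lower (log2 difference of -0.57, SE 0.045) in Hh-CM than in Control. In the libraries labelled Esrrb+Hh-CM it was 2.2 times lower than in those labelled Esrrb, a log2 difference of -1.14 (SE 0.045). Without the library labelled Esrrb replicate 1 this difference was -1.17, and that between Control and the libraries labelled Esrrb was 1.42. The doubly treated libraries ended close to Control, with a log2 difference of 0.25 (SE 0.045).

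Sfrp2, the gene of a second secreted frizzled-related protein, had the widest range, 4.44 between its lowest and highest group mean on the log2 scale. It was at 8.13 and 7.75 FPKM in Control, 3.47 and 4.33 in Hh-CM, 85.5 and 87.2 in the libraries labelled Esrrb, and 33.5 and 31.8 in those labelled Esrrb+Hh-CM. Again no condition overlapped another, in the same order as for Sfrp1 with the libraries labelled Esrrb+Hh-CM at 4.11 times the Control mean. The libraries labelled Esrrb held 10.9 times the Sfrp2 mRNA concentration of Control, a log2 difference of 3.43 (SE 0.10). It was 3.44 without the library labelled Esrrb replicate 1. Both values of the libraries labelled Esrrb lay above the intervals that Cufflinks gave for them, 75.6 to 84.6 and 77.3 to 86.0 FPKM. From 7.80% to 11.0% of the FPKM values above 0 in a library lay outside their own interval. Under Hh-CM the ratio between the lines was 8.38, a log2 difference of 3.04 (SE 0.10). The lincRNA gene Gm16790 overlaps the Sfrp2 locus on the other strand. The libraries were made with a stranded mRNA kit, but whether strand was used in the assembly is not given in the sources used here.

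Hh-CM libraries had less Sfrp2 than vehicle libraries in both lines. In the empty-vector line the ratio of vehicle to Hh-CM was 2.04, a log2 difference of -1.02 (SE 0.10), and this value depended on single libraries, being -0.86 without Hh-CM replicate 1 and -0.98 without Control replicate 1. In the Esrrb-labelled line the ratio was 2.64, a log2 difference of -1.40 (SE 0.10), or -1.41 without the library labelled Esrrb replicate 1. From Control to the libraries labelled Esrrb+Hh-CM the log2 difference was 2.03 (SE 0.10).

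Frzb, the third gene of this family here, was near 0 throughout. It was at 0.046 and 0.0588 FPKM in Control, 0.0207 and 0.0448 in Hh-CM, 0.108 and 0.0709 in the libraries labelled Esrrb, and 0.0485 and 0 in those labelled Esrrb+Hh-CM. The 2 highest values were those of the libraries labelled Esrrb, at a level too low for a fold to be given.

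Dkk2, a Dickkopf gene whose product binds the Lrp co-receptors, differed in the direction opposite to Sfrp1 and Sfrp2. It was at 1.73 and 1.38 FPKM in Control, 3.26 and 2.59 in Hh-CM, 1.03 and 1.21 in the libraries labelled Esrrb, and 2.41 and 2.69 in those labelled Esrrb+Hh-CM. All 4 Hh-CM libraries stood above all 4 vehicle libraries, and the libraries labelled Esrrb had the 2 lowest values. The ratio of Hh-CM to Control was 1.88 (log2 difference of 0.87, SE 0.18). In the Esrrb-labelled line it was 2.28 (log2 difference of 1.12, SE 0.18), or 1.01 on the log2 scale without the library labelled Esrrb replicate 1. Between the lines the difference was -0.44 (SE 0.18) with vehicle, or -0.33 without the library labelled Esrrb replicate 1, and -0.19 (SE 0.18) with Hh-CM, where the 2 groups overlapped.

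Dkk3, a divergent Dickkopf gene at mm9 chr7:119259533-119302571 on the minus strand, was abundant and nearly level. Its values were 53.7 and 54.6 FPKM in Control, 51.9 and 52.1 in Hh-CM, 56.3 and 58.0 in the libraries labelled Esrrb, and 43.8 and 43.6 in those labelled Esrrb+Hh-CM. The conditions did not overlap, but the lowest condition mean, 43.7 FPKM, was still 0.807 of the Control mean. Hh-CM differed from Control by -0.06 (SE 0.033) on the log2 scale, and the libraries labelled Esrrb+Hh-CM differed from those labelled Esrrb by -0.39 (SE 0.033), or -0.41 without the library labelled Esrrb replicate 1.

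Wif1 was listed at 0 in 7 libraries and at 0.0323 FPKM in the library labelled Esrrb+Hh-CM replicate 1. The summed FPKM of the 6 genes of secreted inhibitor families was 137 and 141 in Control and 110 and 109 in Hh-CM. It was 336 and 348 in the libraries labelled Esrrb, and 169 and 168 in those labelled Esrrb+Hh-CM. Dkk3 is counted in this sum by its family only. Sfrp2 made up 5.95% and 5.49% of the sum in Control and 25.4% and 25.0% in the libraries labelled Esrrb. The share of Dkk3 went the other way, from 39.3% and 38.7% in Control to 16.8% and 16.6%.

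**Figure D2:**
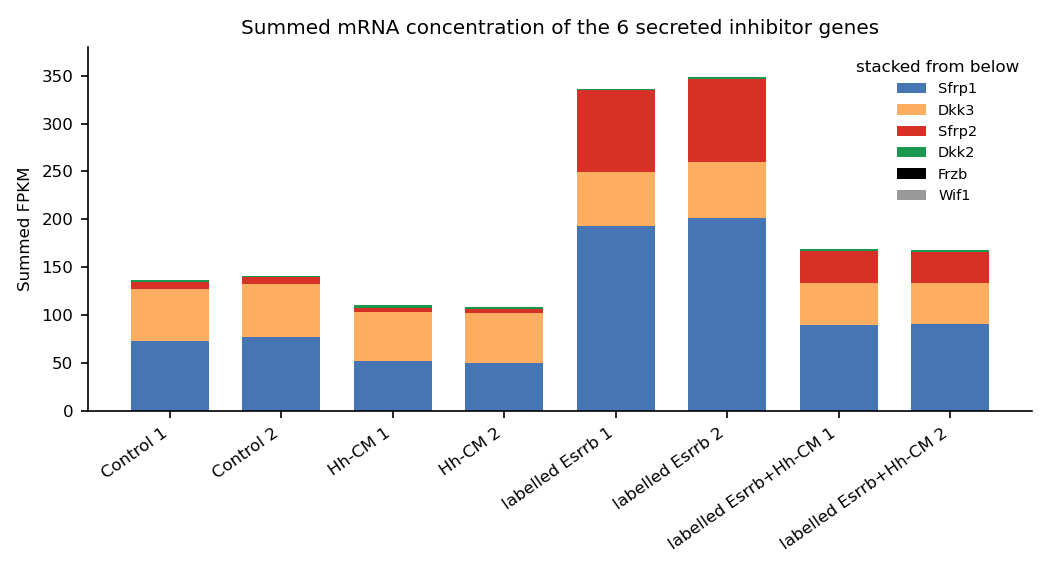
Summed FPKM (vertical axis, from 0) of the 6 genes of secreted inhibitor families in each of the 8 libraries (horizontal axis), stacked by gene. Dkk3 is counted by its family only. The sum is highest in the libraries labelled Esrrb, at 336 and 348 FPKM, and lowest in the Hh-CM libraries, at 110 and 109.

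The order of the genes of these families also differed between conditions. Control ran Sfrp1, Dkk3, Sfrp2. In Hh-CM the mean of Dkk3 was 52.0 ± 0.13 FPKM and that of Sfrp1 50.6 ± 1.4 (SD, n = 2), and these neighbours did not differ beyond their spread. In the libraries labelled Esrrb, Sfrp2 (86.3 ± 1.2) stood above Dkk3 (57.1 ± 1.2), and in those labelled Esrrb+Hh-CM it was below it again (32.7 ± 1.2 against 43.7 ± 0.19). FPKM is scaled by transcript length, so these levels can be set side by side between genes. In bulk samples such as these, fewer cells that express a gene and less RNA of it per cell cannot be told apart.

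Of the ligands, Wnt5a was the only one of the 3 above 1 FPKM. It signals mainly without β-catenin and was at 1.51 and 3.92 FPKM in Control, 3.41 and 2.71 in Hh-CM, 2.19 and 2.32 in the libraries labelled Esrrb, and 1.92 and 3.81 in those labelled Esrrb+Hh-CM. All conditions overlapped the Control range, because the 2 Control libraries lay at 1.51 and 3.92. The log2 difference of Hh-CM from Control was 0.30 (SE 0.49), and it was -0.36 without Control replicate 1 and 0.96 without Control replicate 2. In the other 4 comparisons it lay between -0.16 and 0.25 (SE 0.49 each), so that no difference was detectable with this spread.

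The spread of Wnt5a coincided with unequal gene models. Its assembled locus (annotated at mm9 chr14:29317936-29340633, plus strand) had 5 different starts and 2 different ends among the 8 libraries, whereas each of the other 9 genes had 1 start and 1 end. The library labelled Esrrb replicate 1 and Hh-CM replicate 2 had the same Wnt5a start, 29318002, and the same end, 29338771. They also had the same locus numbers for Wnt5a and Wnt5b, but not for Sfrp1, Sfrp2 or Dkk3. In the library labelled Esrrb+Hh-CM replicate 2, the interval that Cufflinks gave around 3.81 FPKM ran from 2.06 to 54.6. The part of the gene models in the spread was not tested. The lincRNA gene Gm2670 lies within the Wnt5a locus on the other strand.

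Wnt4, a ligand with roles in mesenchyme and kidney, was at 0.141 and 0.14 FPKM in Control, 0.0729 and 0.08 in Hh-CM, 0.116 and 0.15 in the libraries labelled Esrrb, and 0.171 and 0.116 in those labelled Esrrb+Hh-CM. The Hh-CM libraries had the 2 lowest values, and the other conditions overlapped each other. Wnt5b was listed at 0 in 5 libraries and reached at most 0.0344 FPKM. The gene Fbxl14, which lies within the Wnt5b locus on the other strand, had from 7.95 to 11.3 FPKM and was read from a locus of its own.

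Axin2, a scaffold of the complex that degrades β-catenin and a gene that β-catenin itself induces in many cells, was low in every condition. It was at 0.2 and 0.0919 FPKM in Control, 0.0971 and 0.09 in Hh-CM, 0.0724 and 0.127 in the libraries labelled Esrrb, and 0.0975 and 0.104 in those labelled Esrrb+Hh-CM. Of the other 6 values, 4 lay between the 2 Control values and 2 just below them, and all values, from 0.0724 to 0.2 FPKM, were under the limit of 1 FPKM used for the tests.

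**Figure D3:**
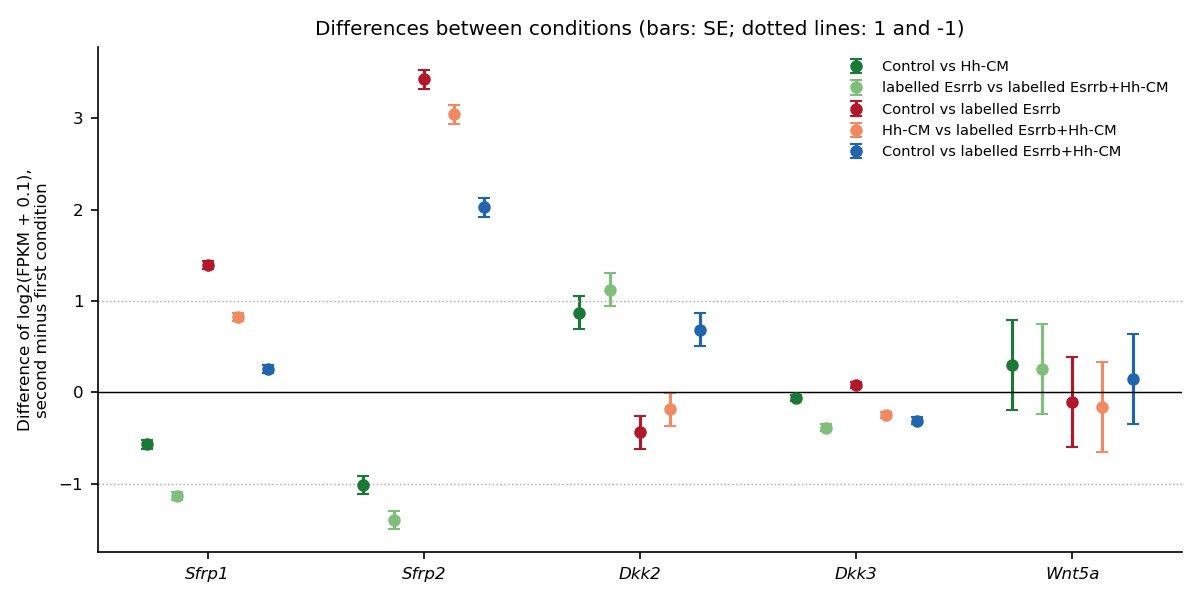
Difference of log2(FPKM + 0.1) between conditions (vertical axis, second minus first) with its SE for the 5 genes that passed the FPKM limit (horizontal axis), in the 5 comparisons (colours). Sfrp2 reaches 3.43 between Control and the libraries labelled Esrrb, Dkk2 lies above 0 in both Hh-CM comparisons where Sfrp1 and Sfrp2 lie below 0, and the bars of Wnt5a span 0.

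A gene was called changed if limma gave an adjusted p below 0.05 and a log2 difference of at least 1 in size. In Control against Hh-CM, 2.75% of the 10276 genes were called, and of the 5 members that were tested Sfrp2 passed. Control against the libraries labelled Esrrb gave 1.48% of all genes, and Sfrp1 and Sfrp2. Control against those labelled Esrrb+Hh-CM gave 6.22%, and Sfrp2. Hh-CM against those labelled Esrrb+Hh-CM gave 1.97%, and Sfrp2. The libraries labelled Esrrb against those labelled Esrrb+Hh-CM gave 4.83%, and Sfrp1, Sfrp2 and Dkk2. The members were chosen with these contrasts known, so nothing is read from their counts. Without Hh-CM replicate 2, the log2 differences of Hh-CM from Control were -0.54 for Sfrp1, -1.17 for Sfrp2, 1.03 for Dkk2, -0.06 for Dkk3 and 0.46 for Wnt5a. Those of the libraries labelled Esrrb+Hh-CM from Hh-CM were then 0.80, 3.20, -0.34, -0.25 and -0.32. The Control libraries, and likewise each other group, are shared between comparisons.

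The interaction is the Hh-CM difference in the Esrrb-labelled line minus that in the empty-vector line. By an adjusted p below 0.05, 1.34% of all genes had one, and of the members Sfrp1 (-0.57, SE 0.063) and Dkk3 (-0.33, SE 0.047) were past this limit. Dkk3 was not past it in any of the 8 fits that leave out 1 sample, and Sfrp1 in 2 of them (without Control replicate 2 or the library labelled Esrrb+Hh-CM replicate 2); neither was with the replicate number as a block or without the variance trend. Sfrp2 had a value of -0.38 (SE 0.15), Dkk2 of 0.25 (SE 0.26) and Wnt5a of -0.05 (SE 0.70), and without the library labelled Esrrb replicate 1 the 5 values were -0.60, -0.35, -0.40, 0.14 and -0.09. The values of Sfrp1, Sfrp2 and Dkk3 were below 0. They are descriptive, and no difference between the lines is read from them.

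For the 3 members with the widest range, the tested genes outside the 10 with the most similar pattern were sought by the root mean square difference of log2 values, centred on each gene's mean, over the 8 samples. Sytl2 (0.10), Slc16a9 (0.15) and Lum (0.17) were closest to Sfrp1. Lum, which encodes the matrix proteoglycan lumican, had means of 349 FPKM in Control, 247 in Hh-CM, 1024 in the libraries labelled Esrrb and 538 in those labelled Esrrb+Hh-CM. The genes closest to Sfrp2 were farther from it, Spats2l at 0.45, Stc1 at 0.46 and Vmn1r44 at 0.55. Vmn1r44 had means of 0.0427 FPKM in Control, 0 in Hh-CM, 1.02 in the libraries labelled Esrrb and 0.944 in those labelled Esrrb+Hh-CM. It therefore passed the FPKM limit only through libraries in which Sfrp2 was high. Stc1 was also low, with means of 0.577, 0.185, 3.35 and 1.37 FPKM in this order. No shared pattern is read from these 2 genes. Gm15706 (0.11), Fth1 (0.14) and Galntl4 (0.15) were closest to Dkk2. Fth1, the ferritin heavy chain, had means of 4581, 8123, 3276 and 7204 FPKM in the same order of conditions.

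Among the other Wnt ligands, 14 of the 16 matched genes stayed below 0.5 FPKM in all 8 libraries, and only Wnt9a was tested, with 1.67 to 3.36 FPKM. Wls, which carries Wnt proteins to the cell surface, was abundant at 148 to 205 FPKM. By the mean of all 8 libraries, Ryk (77.3 FPKM, range 69.3 to 85.9) and Fzd1 (77.1 FPKM) were the most abundant receptors and were nearly level. Fzd1 was higher than Ryk in the libraries labelled Esrrb. By the same mean, Gpc4 was the most abundant gene listed as a membrane inhibitor (66.8 to 77.6). Ctnnb1, which encodes β-catenin, was the most abundant of the cytoplasmic components (187 to 217), and Tcf7l1 of the nuclear factors (27.3 to 46.0).

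In Control against Hh-CM, 3 of the 57 tested pathway genes were called higher and none was called lower. They were 2 of 13 receptors and 1 of 7 genes of the planar polarity branch, with none of the other 37. Differences short of the size limit lay in both directions. Lgr4, a receptor of the R-spondins, was at 7.04 and 6.80 FPKM in Control and 29.9 and 31.1 in Hh-CM, a log2 difference of 2.12 (SE 0.048) with an adjusted p of 2.73e-05 in limma. Fzd4, a Frizzled receptor, rose by 1.52 (SE 0.061) and Prickle1, a core planar polarity gene, by 1.07 (SE 0.077), and without Hh-CM replicate 2 the 3 differences were 2.10, 1.54 and 1.03. Called genes made up 5.26% of the 57 genes and 2.75% of all tested genes. The list was chosen with earlier results known, so the adjusted p is no independent test. The median log2 difference was 0.09 over the 57 genes and 0.04 over all tested genes.

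The same question in the Esrrb-labelled line gave 5 calls of the 57. Between the libraries labelled Esrrb and those labelled Esrrb+Hh-CM, Lgr4 rose by 2.02 (SE 0.048) and Fzd4 by 1.54 (SE 0.061), while Wisp2, a matricellular gene, was lower at -1.31 (SE 0.039), Fzd7, another Frizzled receptor, at -1.21 (SE 0.083) and Rspo2, a secreted activator, at -1.13 (SE 0.12). The largest adjusted p of the 5 genes, in limma, was 0.00175, for Rspo2. Without the library labelled Esrrb replicate 1, these 5 differences were 2.01, 1.59, -1.32, -1.21 and -1.07. Prickle1 missed the size limit in this line, at 0.96 (SE 0.077, adjusted p = 0.00056 in limma), or 0.86 without the library labelled Esrrb replicate 1. Its interaction of -0.12 had an adjusted p of 0.622 in limma, and the value was -0.21 without that library. Called genes made up 8.77% of the list and 4.83% of all tested genes. Medians were 0.05 over the list and 0.04 over all tested genes.

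Between Control and the libraries labelled Esrrb, Ror2 was the 1 pathway gene called of 57. This receptor tyrosine kinase for Wnt5a was at 2.42 and 2.91 FPKM in Control and 5.95 and 6.03 in the libraries labelled Esrrb, a log2 difference of 1.15 (SE 0.11, adjusted p = 0.00248 in limma), or 1.16 without the library labelled Esrrb replicate 1. Fzd1, another Frizzled receptor, was at 65.8 and 64.4 FPKM in Control and at 108 and 109 in the libraries labelled Esrrb, a difference of 0.73, or 0.74 without the library labelled Esrrb replicate 1, that missed the size limit. Called genes made up 1.75% of the list, near the 1.48% of all tested genes. Medians were 0.12 over the list and 0.05 over all tested genes.

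With Hh-CM in both lines, limma called none of the 57 genes between Hh-CM and the libraries labelled Esrrb+Hh-CM. Without the size limit, 27 had an unadjusted p below 0.05 and 16 an adjusted p below it in limma. The matching counts over all tested genes are not given here, so nothing about the pathway is read from these counts. The largest difference among the 16 was that of Wisp2 (-0.88, SE 0.039). It was at 44.8 and 45.3 FPKM in Hh-CM and 25.1 and 23.8 in the libraries labelled Esrrb+Hh-CM. From Control to the libraries labelled Esrrb+Hh-CM, 4 genes were called higher and 1 was called lower. Lgr4 (1.95, SE 0.048), Fzd4 (1.83, SE 0.061), Prickle1 (1.43, SE 0.077) and Ror2 (1.02, SE 0.11) were higher, and Wisp2 was lower (-1.74, SE 0.039). Ror2 missed the size limit under 4 alternatives, at 0.83 with a pseudocount of 1, 0.94 with rescaled FPKM, 0.89 without Control replicate 1 and 0.95 without the library labelled Esrrb+Hh-CM replicate 2. Called genes made up 0% and 8.77% of the list in these 2 comparisons, against 1.97% and 6.22% of all tested genes. List medians were -0.01 and 0.11, against 0.05 and 0.08 over all tested genes.

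**Figure D4:**
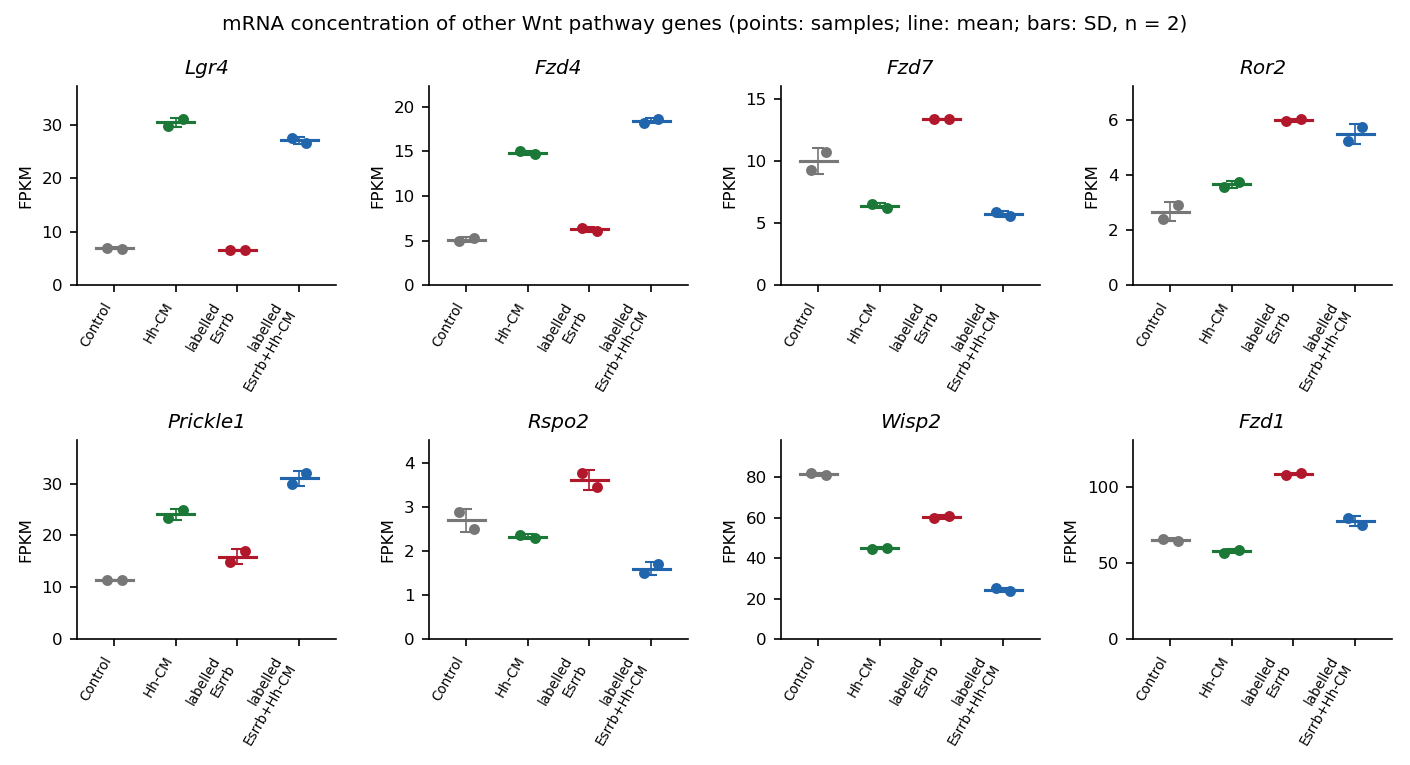
FPKM (vertical axes, from 0, a scale for each gene) of the 7 called pathway genes and Fzd1 in the 4 conditions (horizontal axes). Points are samples, lines are means and bars are SD of 2 samples. Lgr4 and Fzd4 are high in all 4 Hh-CM libraries, and Ror2 and Fzd1 are highest in the libraries labelled Esrrb.

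**Figure D5:**
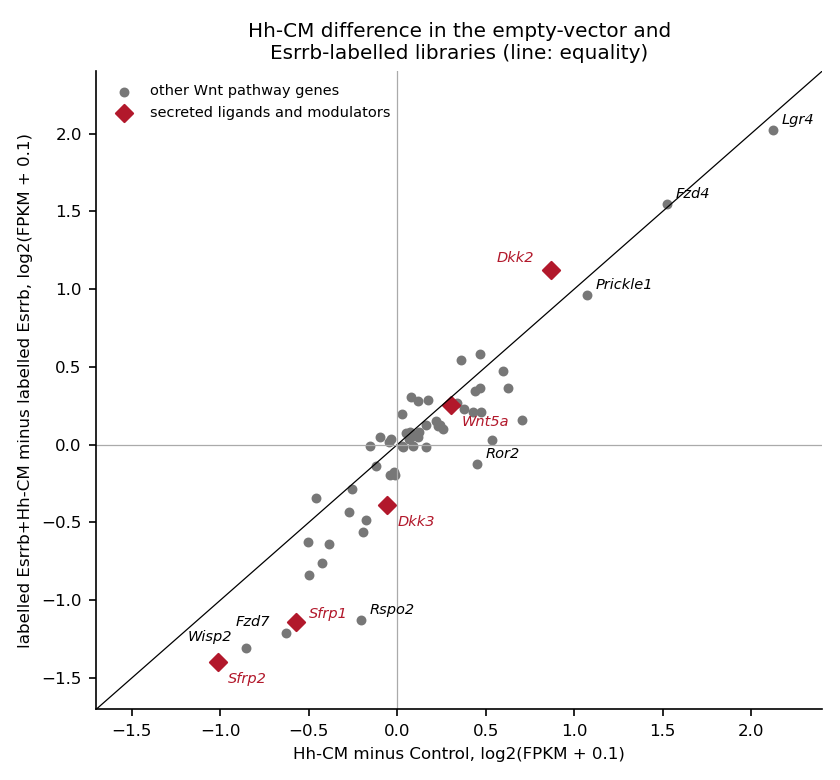
Hh-CM difference on log2(FPKM + 0.1) in the empty-vector line (horizontal axis) and in the Esrrb-labelled line (vertical axis) for the tested pathway genes (grey, without Fosl1, which had libraries listed at 0) and the 5 tested members (red); the line marks equality. Sfrp1 (-0.57 and -1.14), Sfrp2 (-1.02 and -1.40) and Wisp2 lie below the line in the lower left, and Dkk2 (0.87 and 1.12) lies above it in the upper right.

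Wisp2 was also the 1 pathway gene of 57 with an interaction, -0.45 (SE 0.055, adjusted p = 0.0284 in limma), and it was past the limit in 2 of the 8 fits that leave out 1 sample, with an adjusted p of 0.0828 without the library labelled Esrrb replicate 1 and 0.0992 without Hh-CM replicate 2. Its Hh-CM values were lower in both lines, going from 82.1 and 81.1 FPKM in Control to 44.8 and 45.3 in Hh-CM, which missed the size limit at -0.85, and from 59.9 and 61.0 in the libraries labelled Esrrb to 25.1 and 23.8 in those labelled Esrrb+Hh-CM. Genes with an interaction made up 1.75% of the list, near the 1.34% of all tested genes. The interaction median was -0.10 over the list and 0.00069 over all tested genes.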

How the data were processed

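RNA-Seq values of 8 samples in 4 conditions were used. The authors trimmed reads with FASTX-Toolkit, mapped reads on the mm9 genome (TopHat2, Bowtie2) and assembled each sample with Cufflinks; the deposited values are FPKM, which the paper calls RPKM. Versions are not given in the sources used here, and the Cuffdiff test needs aligned reads and was not repeated. Loci were joined across samples by their best overlap with an annotated mm9 gene (GENCODE M1, Jaccard index of at least 0.5), without small RNA genes or pseudogenes. This was done because assembled loci are not numbered alike across all samples. Genes with at least 1 FPKM in at least 2 samples entered a limma 3.58.1 fit (R 4.3.3) of log2(FPKM + 0.1) with all 8 samples, 4 group means, a variance trend and Benjamini-Hochberg adjustment over 10276 genes. A log2 difference on this scale understates changes of low genes. The fit was tested on simulated data. Tables and figures were made with Python.

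The members and the lists were chosen with earlier results of these data known. All members are named, and of the 112 pathway genes (Draxin, Gsk3a, Bcl9, Bcl9l and Pygo2 were not matched) those called with the same sign in all 4 sample pairs, up to 8 a comparison, and the most abundant of each role; Fzd1, Fosl1, Celsr3, Rspo1 and Fbxl14 were named after their values were seen. The smallest exact two-sided permutation p for 2 against 2 samples is 0.33, so no such test was run. Alternatives were pseudocounts of 1 and 0.001, other FPKM limits, the replicate number as a block, only the compared groups, rescaled FPKM, no variance trend, summed loci, a Jaccard index of at least 0.8, the adjusted p alone (for the interaction with a size limit), and each sample left out.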

Additional observations from a re-analysis of the deposited data

Results flagged for a closer look

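Wisp2 had an unequal Hh-CM difference between the lines by the interaction in limma (-0.4505, adjusted p = 0.0284). It was past the limit in 2 of the 8 fits that leave out 1 sample, when a library labelled Esrrb+Hh-CM was left out. Its adjusted p was 0.0766 with the replicate block and 0.0621 without the variance trend. Among the members, Sfrp1 and Dkk3 had interaction values of -0.5676 and -0.3278. They were chosen with these values known, so the values are a description and no difference between the lines is read from them.

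Ror2 stood higher in both Hh-CM libraries than in both Control libraries (0.45 on the log2 scale) and lower in both libraries labelled Esrrb+Hh-CM than in both labelled Esrrb (-0.13). Its interaction of -0.5771 (SE 0.15) had an adjusted p of 0.132 in limma, so a difference between the lines was not shown.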

How the results depend on the processing

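With conditions named by their labels, counts of called pathway genes (3, 1, 5, 0 and 5 in the 5 comparisons in the order of the methods: Control against Hh-CM, Esrrb and Esrrb+Hh-CM, then Hh-CM and Esrrb against Esrrb+Hh-CM; 1 for the interaction) stayed within 1.5 times the reported count except as follows. With the adjusted p alone they were 22, 14, 28, 16 and 20, and with a size limit the interaction had 0. The share of all tested genes with the adjusted p alone is not given here, so these counts describe the list only. Control against Esrrb had 0 with a pseudocount of 1 and 2 without an FPKM limit (Celsr3 in addition), and Hh-CM against Esrrb+Hh-CM had 1 without that limit (Rspo1). Of all 10276 tested genes, 152 were called in Control against Esrrb and 88 with a pseudocount of 1. Without the FPKM limit, 188 of 20190 genes were called there. In Hh-CM against Esrrb+Hh-CM the calls were 202 of 10276, and 229 of 20190 without the limit. The interaction had 0 without the variance trend and 2 with rescaled FPKM (Fzd1 in addition). Over all 10276 tested genes it had 138 calls, 83 without the variance trend and 213 with rescaled FPKM. Leaving out each sample gave 3 to 4, 1 to 2, 4 to 6, 0 to 0, 5 to 6, and 0 to 1 for the interaction, which kept Wisp2 only when a library labelled Esrrb+Hh-CM was left out. Without Esrrb replicate 2, the added gene between Control and Esrrb was Fosl1, whose value is listed at 0 in Esrrb replicate 1. An arm left with 1 sample was assumed to vary like the other groups.

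The replicate block took the interaction from 1 called pathway gene to 0 and from 138 to 53 called genes in all. Deviations of samples with the same number correlated between -0.0389 and 0.0715 over 6 pairs of conditions. Such correlations over all tested genes cannot show whether samples with the same number share a transfection or a culture. No member past the call rule reversed. Of the interactions, Sfrp1 and Dkk3 were no longer past the rule with the block or without the variance trend, Sfrp1 in 6 and Dkk3 in 8 of the 8 fits without 1 sample. Of the comparisons, past the rule no longer were Sfrp2 in Control against Hh-CM with a pseudocount of 1 (-0.87) or without Control replicate 1 or Hh-CM replicate 1, and Dkk2 in Esrrb against Esrrb+Hh-CM with a pseudocount of 1 (0.74). Among called pathway genes, Ror2 missed the size limit in Control against Esrrb with a pseudocount of 1 and in Control against Esrrb+Hh-CM under 4 alternatives, and Rspo2 with a pseudocount of 1. Rescaling moved the median difference by at most 0.0982. With 2 samples a condition and no read counts, genes below 1 FPKM were not tested.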

Other observations

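Fosl1, an AP-1 gene often listed as a Wnt target, was at 4.13 and 3.65 FPKM in Control, listed at 0 in both Hh-CM libraries, at 0 and 4.74 FPKM in the libraries labelled Esrrb, and at 0 in both libraries labelled Esrrb+Hh-CM. The 0 in the library labelled Esrrb replicate 1, beside 4.74 in its partner, shows that a 0 here can differ within a condition, and an exact 0 from an assembly can be a failed estimate. No fold is given for this gene.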
